A study of Drosophila melanogaster with 8 samples.

Results

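The fragments described here were the 2045 GATC fragments whose deposited log2 Dam-Pol II to Dam ratio lay below -0.5 in all 4 profiles of terminal tracheal cells, out of 253552 fragments of at least 100 bp on chromosomes 2L, 2R, 3L, 3R, 4 and X. They made up 0.807% of those fragments and are called Dam-biased below. The deposited values themselves chose them, so their low values are a description and no test was made of them. The opposite set, 21301 fragments above 0.5 in all 4 profiles (8.4%), is called Pol II-biased and served for contrast.

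The study profiled RNA polymerase II (Pol II) in adult Drosophila by targeted DamID. Flies carried w-, dSRF-GAL4 with UAS-CD8GFP, and tub-GAL80ts, together with either UAS-LT3-Dam or UAS-LT3-Dam-Pol II, so that all 4 groups shared the driver, the reporter and the temperature-sensitive repressor. They were reared at 18 °C, collected every 48 hours, aged for 7 days and induced at 29 °C for 24 hours, and for the last 16 hours their food was sucrose alone (Suc) or had an added bacteria solution, named Pe, whose samples are labelled as damaged intestine. The 8 libraries formed 4 groups of 2, Pe with Dam, Pe with Dam-Pol II, Suc with Dam and Suc with Dam-Pol II, each from pools of 60 midguts with their tracheal cells. Each Dam-Pol II library and its Dam control were represented by 1 profile, so 2 Pe and 2 Suc profiles were available. The profiles hold no counts, and the depth is unknown. Expression was limited by dSRF-GAL4 to cells in which that driver is active, while the DNA came from whole midguts, and the ratio gives no measure of how much DNA each cell type contributed.

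Dam is a bacterial enzyme that methylates the adenine of GATC, and methylated sites are cut and amplified in DamID. Free Dam methylates DNA wherever it can reach it and marks accessible chromatin, including enhancers that are not transcribed. Dam fused to a Pol II subunit also marks the genes on which the polymerase sits. A ratio below 0 therefore means relatively more methylation by free Dam than by the fusion. Chromatin accessibility and transcription were not measured in these samples, so whether the Dam-biased fragments are open or untranscribed is not shown by the ratio.

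The label tracheal was checked against marker genes. The mean log2 ratio over the length of bs, which encodes serum response factor, was 0.55 in Pe 1, 0.26 in Pe 2, 0.84 in Suc 1 and 1.13 in Suc 2. Over stumps, an adaptor of the FGF receptor, it was 1.08, 1.0, 1.05 and 1.54 in the same order, and the FGF receptor gene btl and the chitin-binding protein gene Gasp were also above 0 in all 4 profiles. The tracheal regulators trh, vvl and kni were below 0 in Pe 2 (-0.48, -0.44 and -0.59) and above 0 in the other profiles, and rib was below 0 in all 4 (-0.16, -0.04, -0.20 and -0.24). Enterocyte protease genes were also above 0, with betaTry, one of several closely similar trypsin genes, at 2.14, 1.15, 3.35 and 2.89. The enterocyte marker Mal-A1 was at -0.12 in Pe 2 and above 0 in the other profiles. Outside that list, Act57B and Mlc2 of muscle, esg of intestinal stem cells, and Tk of enteroendocrine cells were above 0 in all 4 profiles. Act57B had 0.38, 1.25, 1.37 and 1.43, and esg 0.15, 0.22, 0.77 and 0.86. Every other muscle, stem cell, enteroendocrine, haemocyte and neuron marker was below 0 in at least 1 profile. None of the 291 fragments over the 8 tracheal markers was Dam-biased, but neither were any of the 32 over enterocyte, 108 over muscle, 89 over haemocyte and 165 over neuron markers. Enteroendocrine markers had 1 of 183 and those of intestinal stem cells and enteroblasts 1 of 111. With 0.807% of all fragments in the set, such counts tell the lists apart little. The part of gut cells in any value was not tested.

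The bias against Dam-Pol II, which the rule itself placed in every fragment of the set, was moderate in size. The median over the 2045 fragments was -0.83 in Pe 1, -0.84 in Pe 2, -1.09 in Suc 1 and -0.97 in Suc 2. On a linear scale these medians are ratios of 0.563, 0.559, 0.469 and 0.51. The medians over all fragments lay between -0.02 and 0. Averaged over the 4 profiles, the fragments ran from -2.67 to -0.54 with a median of -0.97, and 955 of them (46.7%) had a mean below -1. Only 185 were below -1 in every profile and 20 had a mean below -2.

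**Figure D1:**
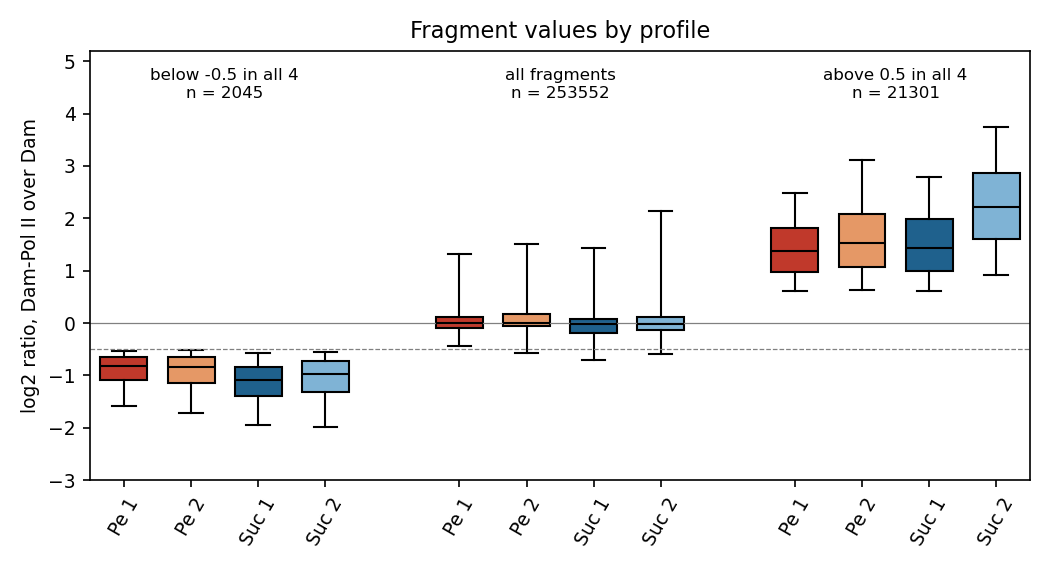
Log2 Dam-Pol II to Dam ratio by profile (vertical axis) for fragments below -0.5 in all 4 profiles, all fragments and fragments above 0.5 in all 4 profiles. Boxes show quartiles and the median, whiskers the 5th to 95th percentile, and the dashed line the threshold of -0.5. The low set has medians from -1.09 to -0.83, against medians near 0 for all fragments.

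The fragments lay at the end of a continuous range rather than apart from other fragments. In 831 of the 2045 the highest of the 4 values was between -0.6 and -0.5, and another 1393 fragments missed the rule with a highest value between -0.5 and -0.4. The fragment at chr2L:1054844-1055193 was just inside, with -0.50 in Pe 1, -0.52 in Pe 2, -0.61 in Suc 1 and -0.78 in Suc 2. The fragment at chr3L:243951-244475 was just outside, with -0.78, -0.50, -1.38 and -1.32, its value in Pe 2 being slightly above the threshold. Within a fragment the 4 profiles spread over a median of 0.61, and replicates of a condition differed by a median of 0.25 in Pe and 0.26 in Suc. Suc 1 held the lowest of the 4 values in 820 fragments, Suc 2 in 582, Pe 2 in 427 and Pe 1 in 216.

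Each profile was also read at fragments chosen on the other 3 profiles alone, which is a measurement the choice did not use. Of 2408 fragments low in the other 3, 84.9% were below -0.5 in Suc 1, where 9.4% of all fragments were. For Suc 2 the share was 75.2% of 2720 against 6.52%, and for Pe 1 it was 65.0% of 3147 against 3.9%. Pe 2 stood lowest, with 36.6% of 5593 against 6.13%, and its median there was -0.33. The mean over the 4 profiles was 65.4% ± 20.9 (SD, n = 4) against 6.49% ± 2.26 of all fragments. The 2 sets of shares did not overlap. The 4 shares count the same 2045 fragments over different totals, and any 2 choices have 2 profiles in common. They are therefore not independent measurements. Pe 2 was the profile least like the others over all fragments (Pearson r across fragments 0.628 to 0.736 with the other 3, against 0.840 to 0.871 among those 3), and its values listed at exactly 0 were 19.6% of fragments against 10.5% to 11.3%.

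Most of the Dam-biased fragments stood alone. Merging those that followed each other without a gap gave 1788 regions, of which 1565 were single fragments, 195 held 2, 23 held 3, 4 held 4 and 1 held 5. The regions had a median length of 428 bp and covered 918270 bp, or 0.686% of the 6 chromosomes. The median distance from one region to the next on a chromosome was 34286 bp, and 260 of 1782 such gaps (14.6%) were no longer than 2000 bp.

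The run of 5 fragments lay at chr2L:5743883-5745279 inside CG11030, with means of -1.53 in Pe 1, -0.97 in Pe 2, -1.96 in Suc 1 and -2.31 in Suc 2. A run of 4 at chr3L:23316976-23318087 lay 559 bp from alpha-Cat, the gene of the cadherin-bound alpha-catenin, at -1.70, -1.40, -1.62 and -2.01. By the rule, all 4 means had to be below the threshold at both places. Among regions of 2 or more fragments the lowest mean, -1.94, belonged to chrX:1640746-1641521, which lies in both Mur2B and br, the latter encoding the ecdysone-induced Broad transcription factors. Its values were -1.76 in Pe 1, -1.10 in Pe 2, -2.39 in Suc 1 and -2.52 in Suc 2. The next, 3 fragments at chr2R:11251975-11252625 over the cuticle protein gene Cpr47Ea, had -0.95, -3.21, -2.13 and -0.99, so that its low mean rested mostly on Pe 2 and Suc 1.

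Other regions among the 10 lowest lay in mub, east, RhoGEF2, drpr, Nipped-B and sut1, with means from -1.64 to -1.60. The engulfment receptor gene drpr had the most even values, at chr3L:1715737-1716546, with -1.63 in Pe 1, -1.45 in Pe 2, -1.78 in Suc 1 and -1.61 in Suc 2. Single fragments reached lower, and the lowest of all, at chr3R:17158650-17159022 in Mur89F, had -2.58, -1.66, -3.10 and -3.34.

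The longest region, 2052 bp at chr3L:15747639-15749691, was a single fragment in lncRNA:CR45240 with -0.54 in Pe 1, -0.65 in Pe 2, -0.84 in Suc 1 and -1.13 in Suc 2. The second, 1951 bp at chr3L:5511222-5513173, overlapped Lkr, the leucokinin receptor gene, with -1.09, -0.86, -1.39 and -1.33. The other 8 of the 10 longest lay in Bruce, dlg1, Cdep, 4E-T, CaMKI, CG11000, wde and Nrx-IV. None of these 10 was among the 10 lowest regions.

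Position was not part of the rule. By the midpoint, 1711 of the 2045 fragments (83.7%) lay inside a Release 6 gene, against 71.8% of all fragments. Another 160 (7.82%) lay within 2000 bp of a gene end, against 10.1%, and 174 (8.51%) farther away, against 18.2%. Among Pol II-biased fragments the shares were 86.5%, 11.8% and 1.63%. The gene table used here holds no strand and no exons, so upstream could not be told from downstream, nor intron from exon. At the lengths of the Dam-biased fragments the share of all fragments inside a gene was 70.3%, slightly below the share over all lengths.

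The higher share inside genes was also present in each profile taken alone. Of the fragments below -0.5 in 1 profile, 82.3% were genic in Pe 1, 79.9% in Pe 2, 83.4% in Suc 1 and 80.9% in Suc 2, all above the 71.8% of all fragments. The share within 2000 bp of a gene end was 7.92%, 10.4%, 8.53% and 8.87%, so that in Pe 2 it was not below the 10.1% of all fragments. The profiles share 1 set of fragments and are not independent in this respect, so no test was made.

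The difference between the sets inside genes was one of place. Only 15% of Dam-biased fragments lay within 500 bp of a gene end, against 18.6% of all and 36.1% of Pol II-biased fragments. Inside genes the median distance to the nearest gene end was 2357 bp for Dam-biased fragments, 2204 bp for all and 1075 bp for Pol II-biased fragments. Outside genes it was 2256.5 bp, 4091 bp and 223 bp. Within 5000 bp of a gene end the Dam-biased share had reached 73.3%, above the 63.8% of all fragments. Dam-biased fragments were thus less frequent than all fragments next to gene ends and more frequent at the scale of several kilobases.

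**Figure D2:**
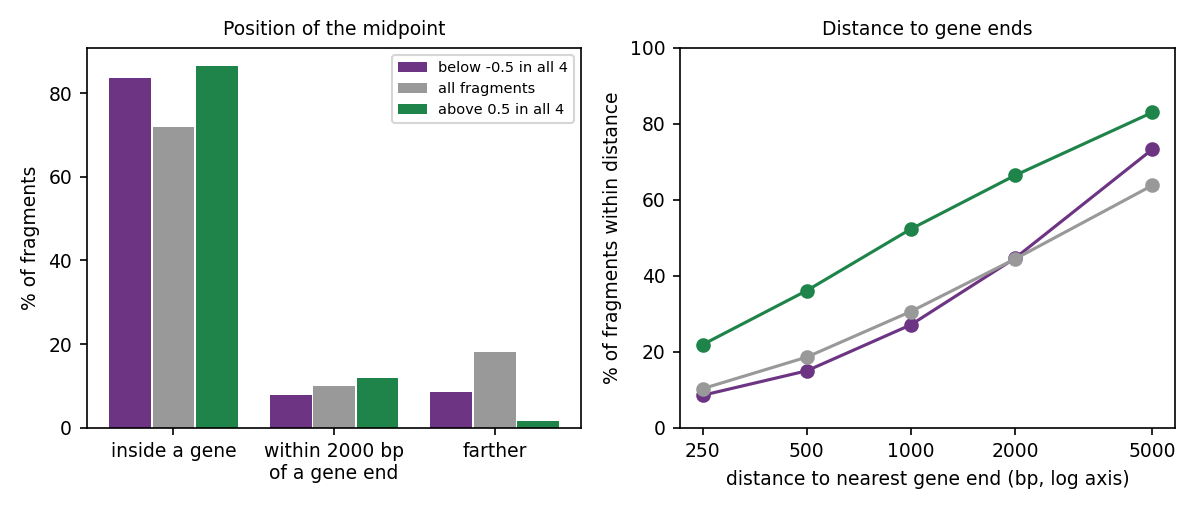
Left, share of fragments (%) inside a gene, within 2000 bp of a gene end, or farther, for fragments below -0.5 in all 4 profiles, all fragments and fragments above 0.5 in all 4 profiles. Right, share within a given distance of the nearest gene end (bp, log axis), where the low set reaches 15% at 500 bp and the high set 36.1%.

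Few of the intergenic fragments formed runs. The 4 intergenic runs of 2 or more fragments lay nearest to gus, exex, Scgdelta and RYa. The run of 3 at chr3L:7957560-7958605 lay 5997 bp from exex, which encodes a homeodomain factor of motor neurons, with -1.06 in Pe 1, -1.10 in Pe 2, -1.39 in Suc 1 and -1.13 in Suc 2. The 2 fragments nearest gus, at chr2R:5108984-5109581, had -1.13, -1.29, -1.65 and -0.89.

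Low values reached into the flanks of the Dam-biased fragments. The first fragment on either side that did not meet the rule had a mean of -0.49 on the lower-coordinate side and -0.48 on the other, and 97.1% and 96.9% of these neighbours had a mean below 0. The second neighbours averaged -0.26 on both sides, the third -0.19 and -0.18, and the eighth -0.09 and -0.07. Measured in base pairs, the mean 2000 bp on the lower side was -0.13 in Pe 1, -0.08 in Pe 2, -0.26 in Suc 1 and -0.15 in Suc 2. Around all fragments the means there were 0.13, 0.18, 0.06 and 0.20. At 5000 bp the mean around Dam-biased fragments was 0.06, 0.12, -0.03 and 0.12, still below the means around all fragments of 0.13, 0.18, 0.07 and 0.21. Neighbouring short fragments can carry identical deposited values, as 2 of 15 and 24 bp in RalGPS did, so neighbours are not independent measurements.

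**Figure D3:**
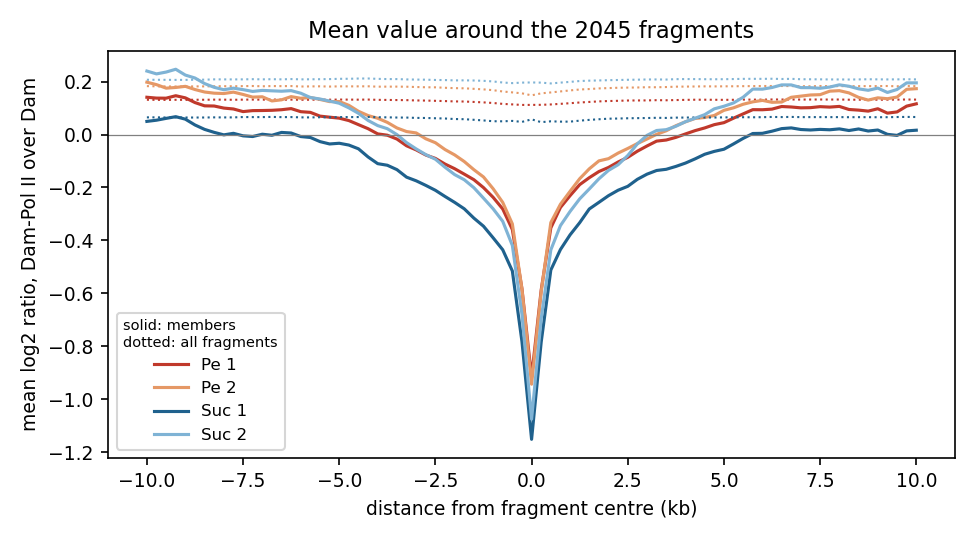
Mean log2 Dam-Pol II to Dam ratio (vertical axis) against the distance from the fragment centre (kb) in each of the 4 profiles. Solid lines are centred on the 2045 Dam-biased fragments and dotted lines on all fragments. The solid lines fall to between -1.15 and -0.92 at the centre and are near the dotted lines at 10 kb.

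Pol II-biased fragments were scarce in the nearest 2000 bp around Dam-biased ones. Within 2000 bp, 5.13% of Dam-biased fragments had a Pol II-biased fragment, against 23.0% of all fragments, which include the Pol II-biased ones. Within 5000 bp the shares were 29.3% and 36.6%. The Pol II-biased fragments, 8.4% of all, count as near themselves in both shares of all fragments. The difference at 5000 bp can therefore not be read as scarcity. The median distance was nevertheless shorter, 8490 bp against 10291 bp.

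The Dam-biased fragments had a narrow range of lengths. Their median was 394 bp with quartiles of 346 and 541 bp, while all fragments had a median of 338 bp with quartiles of 190 and 632 bp. Fragments from 300 to under 450 bp made up 52.6% of the set (1076 of 2045), 17.4% of all fragments and 20.3% of the Pol II-biased set. The share that was Dam-biased rose from 0.122% of fragments of 100 to under 200 bp to 1.77% at 300 to under 350 bp and 3.61% at 350 to under 400 bp. It then fell to 1.95% at 400 to under 450 bp and 0.135% at 1000 to under 1500 bp. The Pol II-biased share showed no such peak and stayed between 9.6% and 11.5% from 200 to 800 bp.

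The spread of all deposited values also depended on length. The SD over fragments of 350 to under 400 bp was 0.76 in Pe 1, 0.77 in Pe 2, 0.84 in Suc 1 and 0.94 in Suc 2, against 0.38, 0.46, 0.48 and 0.66 at 100 to under 200 bp. Pe 1, Pe 2 and Suc 1 had their largest SD in that class. Taken alone, the profiles had 49.3% (Pe 1), 36.0% (Pe 2), 31.5% (Suc 1) and 39.2% (Suc 2) of their values below -0.5 in fragments of 300 to under 450 bp. All 4 were above the 17.4% of all fragments. The part of fragment length in the makeup of the set was not tested.

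**Figure D4:**
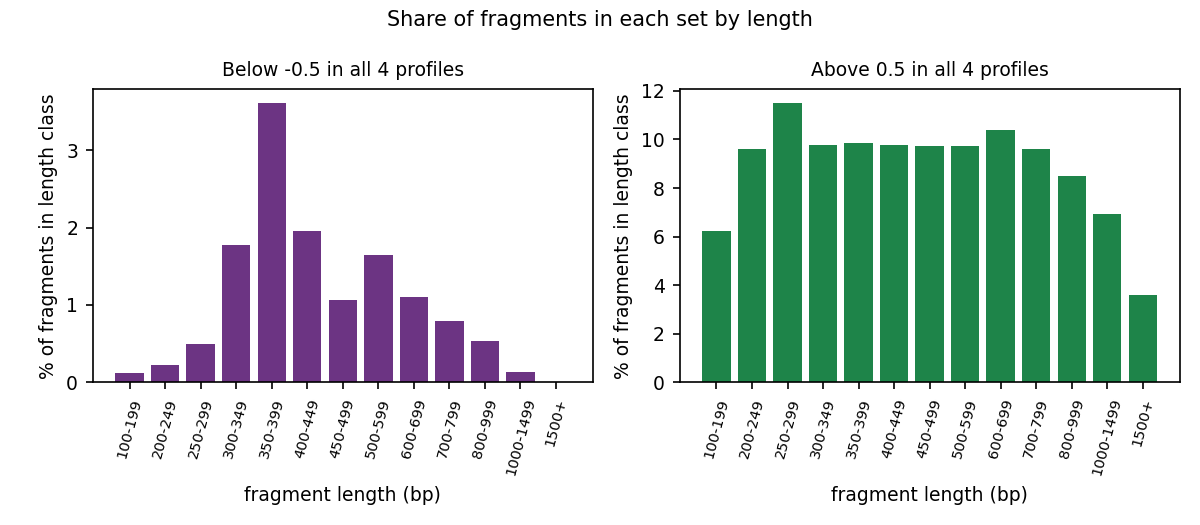
Share of fragments (%) in each length class (bp) that was below -0.5 in all 4 profiles (left) or above 0.5 in all 4 (right). The left bars peak at 3.61% for 350 to under 400 bp, while the right bars stay between 9.6% and 11.5% from 200 to 800 bp.

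Chromosome 4 carried the densest set. Of its 2503 fragments 95 (3.8%) were Dam-biased, against 0.708% on X, 0.71% on 3R, 0.781% on 3L, 0.85% on 2R and 0.851% on 2L. Its Pol II-biased share was 2.52%, against 7.5% to 9.12% on the other chromosomes. In each profile alone, 14.1% of the fragments of chromosome 4 were below -0.5 in Pe 1, 9.87% in Pe 2, 26% in Suc 1 and 20.3% in Suc 2. On the other chromosomes the shares were 3.43% to 4.04%, 5.76% to 6.31%, 8.91% to 9.83% and 6.0% to 6.79%. Chromosome 4 was thus highest in 4 of 4 profiles. This small chromosome is largely packaged as heterochromatin although many of its genes are active.

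On chromosome 4, 36 of 86 genes with at least 3 fragments (41.9%) were overlapped by a Dam-biased fragment, against 8.43% of all 14053 such genes. PMCA, the plasma membrane calcium pump gene, had 7, and lgs (the BCL9 homologue of Wnt signalling), Gyf and CG11155 had 5 each. Over Gyf the gene mean was -0.66 in Pe 1, -0.24 in Pe 2, -0.89 in Suc 1 and -0.77 in Suc 2. The genes pan, which encodes the TCF factor of Wnt signalling, Ank, CG31998, CaMKI, Tdg and Eph had 4 each. Chromosome 4 genes had a median length of 9256.5 bp against 2210 bp for all genes, which gives each more fragments to be counted.

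Elsewhere the set was spread widely. Of 136 windows of 1 Mb with at least 500 fragments, 5 held no Dam-biased fragment and the median share was 0.741%. The 2 windows of chromosome 4 had 4.2% and 2.43%, and 2 others were above 2%, namely 4 to 5 Mb of 2R with 2.16% and 21 to 22 Mb of 2L with 2.07%. The 2R window held Gprk1 and Nipped-B and had 12 Pol II-biased fragments among 2267.

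At the level of genes, 1184 of 14053 protein coding and lncRNA genes (8.43%) were overlapped by at least 1 Dam-biased fragment, 155 by 3 or more and 44 by 5 or more. These hosts were long, with a median of 9638.5 bp. Counts of regions per gene rise with length, so the gene means are given beside them. Among the hosts, 525 (44.3%) had a mean ratio below 0 in all 4 profiles, against 20.5% of all genes. With the Dam-biased fragments left out the share was 31.7%, against 19.4% of all genes treated in the same way. The median host without them stood at -0.02 in Pe 1, 0.01 in Pe 2, -0.12 in Suc 1 and -0.04 in Suc 2, against 0.06, 0.10, 0.00 and 0.11 for all genes. The low neighbouring fragments described above belong to the rest of the hosts. The contrast narrowed with gene length. Under 5000 bp, 63.6% of hosts and 20.6% of all genes had a mean below 0 in all 4 profiles, while from 50000 bp the shares were 20.8% and 18.2%. In those longest hosts the rest of the gene had medians of 0.02 in Pe 1, 0.07 in Pe 2, -0.04 in Suc 1 and -0.06 in Suc 2, against 0.02, 0.06, -0.02 and -0.05 for all genes of that length.

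Msp300, which encodes a giant nesprin that links nuclei to the cytoskeleton, had the most regions under the rule, with 12 regions of 14 fragments among 212. Those 14 averaged -1.10 in Pe 1, -1.03 in Pe 2, -1.33 in Suc 1 and -1.58 in Suc 2, while the whole gene stood near 0 at -0.07, -0.09, -0.19 and -0.12. Dbp80, a DEAD-box RNA helicase gene, had 10 regions among 305 fragments, and l(3)80Fg and Gprk1 had 9 each. Nipped-B, whose product loads cohesin, had 7 regions, and Nipped-A, which encodes a scaffold of histone acetyltransferase complexes, had 5. The order of these genes depended on Pe 2. Without Pe replicate 2 in the rule, l(3)80Fg had 46 regions, Dbp80 33, Gprk1 31, Nipped-B 20 and Nipped-A 11, against 13 in Msp300. The gene l(3)80Fg also passed Msp300 at a threshold of -0.3 (27 against 16) and with profiles scaled by their median absolute deviation (13 against 12). Dbp80, l(3)80Fg, Nipped-B and Nipped-A are known as genes of pericentromeric heterochromatin. Over Nipped-B the gene mean was -0.38 in Pe 1, -0.14 in Pe 2, -0.59 in Suc 1 and -0.57 in Suc 2.

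Bruce stood apart by density rather than by length. It encodes a very large inhibitor of apoptosis that carries a ubiquitin-conjugating domain, and lies at chr3R:10312039-10331353. Of its 43 fragments 17 (39.5%) were Dam-biased, in 9 regions, and none was Pol II-biased. The 17 averaged -1.07 in Pe 1, -1.16 in Pe 2, -1.35 in Suc 1 and -1.12 in Suc 2. The lowest, at chr3R:10324061-10324665, had -2.0, -1.99, -2.84 and -2.23. Even without these 17 fragments the gene averaged -0.40 in Pe 1, -0.46 in Pe 2, -0.42 in Suc 1 and -0.27 in Suc 2, so low values filled most of the gene.

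CG8677 came next in density among the 20 genes with the most regions, with 9 of 31 fragments (29.0%) in 5 regions. Its 9 averaged -0.97 in Pe 1, -1.10 in Pe 2, -1.17 in Suc 1 and -1.43 in Suc 2. The 1 Pol II-biased fragment, across the lower end of the gene, had 1.24, 1.37, 1.5 and 1.58. The remaining genes among the 20 were pum (a translational repressor), lncRNA:CR32773, RhoGEF2, Cdep, shot (a spectraplakin), PMCA, mbl (a splicing factor), kirre (a cell adhesion protein of muscle founder cells), rhea (talin), dikar, dom (a chromatin remodelling ATPase) and CG1677. Without Pe replicate 2 the regions of CG8677 went from 5 to 9 and those of PMCA from 6 to 9. The counts of shot, mbl, dom, Cdep, kirre and lncRNA:CR32773 went from 6, 6, 5, 6, 6 and 7 to 14, 17, 9, 11, 12 and 11. Of the 20, 14 had a mean below 0 in all 4 profiles, 2 (shot and CG1677) had one above 0 in all 4, and 7 had no Pol II-biased fragment.

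Among genes with at least 10 fragments, the largest share after Bruce fell on Hem, followed by CG8677. Hem, a subunit of the WAVE complex that drives actin branching, had 3 of 10 fragments, averaging -1.56 in Pe 1, -1.22 in Pe 2, -1.45 in Suc 1 and -1.38 in Suc 2. Fak, the focal adhesion kinase gene, had 5 of 18, averaging -1.18, -1.33, -1.38 and -1.33. Galphaq, a G protein subunit gene, had 5 of 18, and 4 of these were the same fragments that gave CG45086 its 4 of 14, since both genes start at the same coordinate. CG3632 had 5 of 20, lgs 5 of 21, and RalGPS and Socs16D 4 of 17 each.

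Dam-biased and Pol II-biased fragments often occupied different parts of 1 gene. Of the 1184 hosts, 588 (49.7%) also had a Pol II-biased fragment, against 41.7% of all genes, which are shorter. At like lengths the shares were 23.0% and 36.4% under 5000 bp and 56.7% and 56.6% from 5000 to under 10000 bp. They were 55.7% and 58.7% from 10000 to under 20000 bp, 61.9% and 57.2% up to 50000 bp, and 70.8% and 55.7% beyond. Hosts were thus lower under 5000 bp and from 10000 to under 20000 bp, almost equal in between, and higher in the longest classes. In 170 of the 588 both kinds were present at least 2 times, and in 132 of the 170 (77.6%) all Dam-biased fragments lay on one side of all Pol II-biased ones. No baseline was computed for this share, and neighbouring fragments are not independent, so it was not tested. In 386 of the 588 (65.6%) the median Pol II-biased fragment was closer to a gene end than the median Dam-biased one. Pooled over these genes, though, the median distance to the own gene's nearer end was 3282 bp for Dam-biased and 3886 bp for Pol II-biased fragments, so the order depended on whether genes or fragments were counted. The nearest pair within a gene was a median of 4727.5 bp apart.

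RalGPS, which encodes an exchange factor for Ral GTPases, lies at chr2R:16783671-16792472 and shows the pattern within 8802 bp. Its 8 Pol II-biased fragments lay within the first 2341 bp from the lower coordinate and averaged 1.80 in Pe 1, 1.69 in Pe 2, 1.94 in Suc 1 and 3.05 in Suc 2. The 4 Dam-biased fragments lay from 5271 to 8534 bp and averaged -0.73, -1.30, -1.16 and -1.30. Values changed sign in between, and every Dam-biased value was below every Pol II-biased value in each profile by construction.

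RhoGEF2 lies at chr2R:17027190-17044653. Its 8 Pol II-biased fragments lay up to 2924 bp from the lower coordinate and averaged 1.66 in Pe 1, 1.46 in Pe 2, 1.76 in Suc 1 and 2.39 in Suc 2. Its 8 Dam-biased fragments lay from 7739 to 15968 bp and averaged -1.0, -1.19, -1.31 and -1.20. In Cdep, a FERM-domain gene, 6 Pol II-biased fragments lay up to 4628 bp and 8 Dam-biased ones from 9219 to 30866 bp. In rhea the 9 Pol II-biased fragments lay between 866 and 5677 bp and the 7 Dam-biased ones between 17234 and 28497 bp. In shot the order was not clean, with 28 Pol II-biased fragments between 31864 and 73589 bp and 8 Dam-biased ones between 782 and 39604 bp. Other genes rich in both kinds had overlapping ranges too, namely CG1677, kirre, Mur2B, lncRNA:CR32773 and lncRNA:CR44357. In CG1677 the 20 Pol II-biased fragments lay from 5867 to 43418 bp, within the range of the 6 Dam-biased ones, -339 to 50395 bp. In BRWD3, a bromodomain gene, 5 of each kind lay apart, up to 1738 bp and from 3965 bp.

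**Figure D5:**
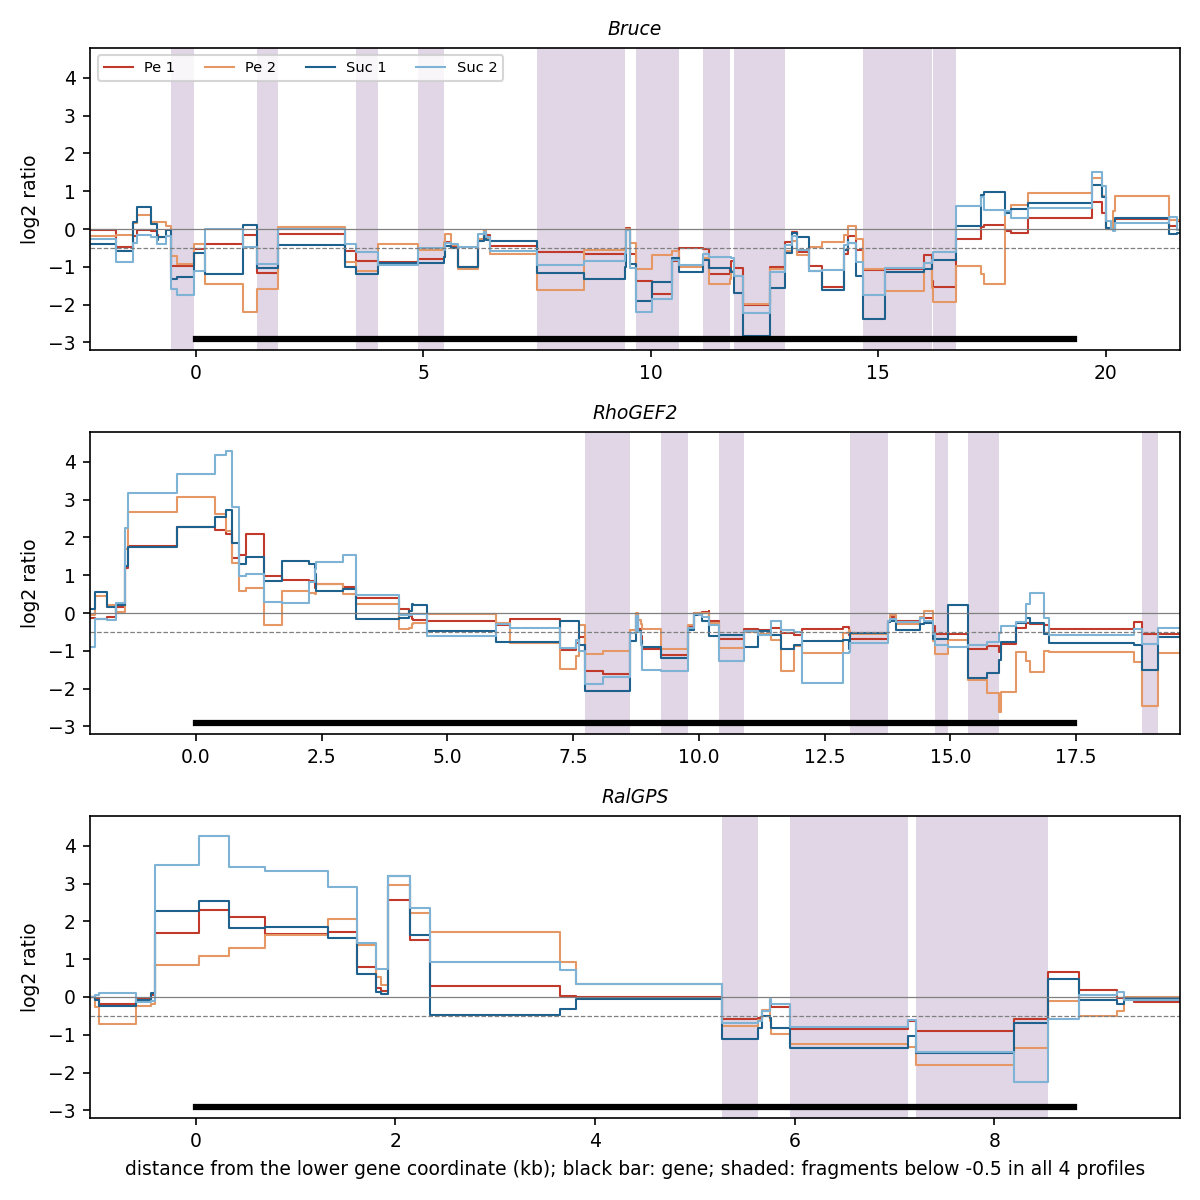
Log2 Dam-Pol II to Dam ratio of each GATC fragment along Bruce, RhoGEF2 and RalGPS, against the distance from the lower gene coordinate (kb), in the 4 profiles. Black bars are the genes and shaded stretches the fragments below -0.5 in all 4 profiles, which lie away from the high end of each gene. In Bruce they run through most of the gene, and values rise above 0 at its upper end.

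Gene groups were compared by their counts, against 8.81% of 13107 protein coding genes that were hosts and 0.913% of the 205183 fragments over them, counted once per gene, that were Dam-biased. Both lists of housekeeping genes had none. The 86 genes of cytosolic ribosomal proteins had 0 of 380 fragments, which allows a share of up to 0.789%, while 50.5% of their fragments were Pol II-biased. The 12 glycolysis genes had 0 of 117, which allows up to 2.56%, with 52.1% Pol II-biased. These limits assume independent fragments, which neighbours are not, and lie near or above the background, so the zeros show little by themselves. Other genes with many Pol II-biased fragments, such as RalGPS and shot above, were hosts, and 168 hosts had a mean above 0 in all 4 profiles.

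Of 17 tracheal identity and branching genes 2 were hosts, pnt, an ETS factor gene, and heca, the headcase gene, with 1 fragment each among 798 (0.251%), while 16.2% of the fragments were Pol II-biased. Of 12 genes of hypoxia and FGF signalling 3 were hosts. The FGF ligand gene bnl had 2 Dam-biased and 14 Pol II-biased fragments among 102, and sima, which encodes the hypoxia-inducible factor, had 1 and 33 among 104. The gene chrb, a hypoxia-induced inhibitor of growth signalling, had 3 of 21 and no Pol II-biased fragment. Its gene mean was 0.01 in Pe 1, 0.09 in Pe 2, -0.44 in Suc 1 and 0.10 in Suc 2, so the gene as a whole was low in Suc 1 alone.

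Groups of neuronal and developmental genes had a share of fragments below or at the background, but these genes are mostly long and more of them were hosts than the 8.81% of all protein coding genes. Developmental transcription factors of Polycomb domains had 11 among 2817 (0.39%) in 9 of 82 genes (11%). Ion channel and neurotransmitter receptor genes had 10 among 2727 (0.367%) in 7 of 48 (14.6%), and guidance and adhesion genes had 16 among 2726 (0.587%) in 12 of 32 (37.5%). Neuronal genes had 6 among 1023 (0.587%) in ChAT, unc-13 and cac, 3 of 17 genes (17.6%). Gustatory, odorant and ionotropic receptor genes had 13 among 1444 (0.9%) in 9 of 177 (5.08%), the exception, with fewer hosts than all genes.

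Lists of other cells of the gut differed in their number of hosts. Enterocyte genes had 0 of 235 fragments, which allows up to 1.28%, and haemocyte genes 0 of 219, which allows up to 1.37%. Of the other lists, visceral muscle had Act87E, Tm2 and bt among 14 genes (21.4%), and intestinal stem cells and enteroblasts had Delta and N among 10 (20%). Enteroendocrine cells had AstA, a neuropeptide gene, among 13 (7.69%). Each of these genes had 1 Dam-biased fragment. Of all protein coding genes 8.81% were hosts. The shares of fragments were 0.493%, 0.649% and 0.365% in the same order, all below the 0.913% of all protein coding genes. Median gene lengths were 10230, 4225.5 and 4720 bp, against 2321 bp for all protein coding genes. The part of length in the number of hosts was not tested. The Dam-biased fragment of Delta, the Notch ligand gene, had -0.77 in Pe 1, -0.58 in Pe 2, -0.63 in Suc 1 and -0.60 in Suc 2, and that of AstA -0.75, -0.60, -1.02 and -0.80.

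The feeding conditions were compared at each fragment with limma, over the 233383 fragments not listed at 0 in every profile. At a Benjamini-Hochberg adjusted p under 0.05 limma called 0% of all fragments and 0 of the 2045 Dam-biased ones, with a smallest adjusted p of 0.710. With 2 profiles per condition this does not show that they were alike. At an unadjusted limma p under 0.05, 266 Dam-biased fragments (13%) were less negative in Pe, against 4.91% of all fragments, and 41 (2%) were more negative, against 2.04%. The Pe and Suc values did not overlap in 728 (35.6%) with Pe higher, against 27.7% of all, and in 146 (7.14%) with Pe lower, against 11.6%. The rule used these same values and bounded them from above in both conditions. Below -0.5 lay 3.9% of all fragments in Pe 1, 6.13% in Pe 2, 9.4% in Suc 1 and 6.52% in Suc 2. The differences from all fragments were not tested apart from that choice.

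The median Pe minus Suc difference over the set was 0.16, against 0.02 over all fragments tested, and Pe was higher in 1460 (71.4%, against 60.7% of all) and lower in 585. That direction depended on scaling. After scaling each profile by its median and median absolute deviation (MAD) the median was -0.10, with Pe higher in 721 and lower in 1324, and the unadjusted calls were 57 higher and 161 lower. After quantile normalization it was 0.00 (-0.0021), with 1019 and 1026, and with 86 and 102 calls. Suc 1, the profile with the most values below -0.5, also weighed on it, and without Suc 1 the median was 0.11.

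Single fragments with the smallest unadjusted p can only be listed. The fragment at chrX:9177530-9177864 in mei-P26, a translational regulator of the TRIM-NHL family, had -1.24 in Pe 1 and -1.17 in Pe 2 against -2.9 in Suc 1 and -3.06 in Suc 2. The difference was 1.77 with an SE of 0.09, an unadjusted limma p of 0.000328 and an adjusted p of 0.710. The fragment at chrX:6811480-6812394 in pod1, an actin and microtubule crosslinker, had -0.72 and -0.85 against -2.03 and -1.98. In Nipped-B the fragment at chr2R:4697652-4697995 had -1.16 and -1.44 against -2.60 and -2.58, and its neighbour at chr2R:4697373-4697652 had -0.88 and -0.75 against -1.74 and -1.78. The others of the 12 smallest p with Pe higher lay in CG46309 and PRL-1, smog, Dap160, Mur2B and br, mod(mdg4), CG11000 and msn, and near CG41128, with differences from 0.66 to 1.68.

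In the other direction differences were smaller. The fragment at chr3R:10328255-10328754 in Bruce had -1.54 in Pe 1 and -1.92 in Pe 2 against -0.83 in Suc 1 and -0.61 in Suc 2, a difference of -1.01 with an SE of 0.19 and a limma adjusted p of 0.710. It was the largest of the 12 with Pe lower, and the others lay in CG6931, ewg, haf, Flacc, CG1233, sunn, CG3744, CG33158, vtd, Usp2 and CG2818, with differences from -0.72 to -0.36. The groups did not overlap in any of these 24 fragments, which were chosen for a small unadjusted p from the same values.

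Whole host genes gave the same picture. Limma called 0% of 13987 genes and 0 of the 1184 hosts, with a smallest adjusted p of 0.898. At an unadjusted limma p under 0.05, 59 hosts (4.98%) were higher in Pe, against 1.59% of all genes, and 2 (0.169%) lower, against 2.29%. The conditions did not overlap in 428 hosts (36.1%) with Pe higher, against 23% of all genes, and in 84 (7.09%) with Pe lower, against 14%. Pe was higher in 69.9% of hosts and 54.7% of all genes. Hosts were chosen through the same values, and their difference from all genes was not tested apart from that choice. The direction of the unadjusted calls turned without Suc replicate 1, to 9 hosts higher and 44 lower (30 and 1580 of all genes), and with MAD scaling it was 23 higher and 10 lower. Over PMCA the mean was -0.28 ± 0.10 in Pe and -0.66 ± 0.08 in Suc (SD, n = 2), a difference of 0.38 with an SE of 0.09 and a limma adjusted p of 0.898. Over CG8677 it was -0.52 ± 0.07 in Pe and -0.83 ± 0.04 in Suc (SD, n = 2). Over Bruce it was -0.73 ± 0.08 in Pe and -0.73 ± 0.14 in Suc (SD, n = 2), a difference of -0.01 with an SE of 0.11. Of the 20 genes with the most regions, 17 had a higher mean in Pe, none past the threshold. The median difference over hosts was 0.07 and fell to 0.01 without Suc 1.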

How the data were processed

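DNA cut by DpnI was ligated to adaptors, cut by DpnII, amplified and sequenced, per the labels' protocols. The deposited profiles give 1 value for each of 383682 GATC fragments, read as a log2 Dam-Pol II to Dam ratio from its range and sign. The log base, the scaling and likewise the aligner were not given in the sources used here. The build is BDGP 6, per the submitters' processing notes. The labels call the replicates biological. The profile of Suc replicate 2 carries another number in its track name, and its number was taken from the labels.

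On 6 chromosomes 253552 of 373710 fragments were at least 100 bp long. Dam-biased fragments were below -0.5 in all 4 profiles, and neighbours in the file were merged. Fragments were placed by midpoint against protein coding and lncRNA genes of a RefSeq table of Release 6, and a gene needed at least 3 fragments. A gene value is the overlap-weighted mean. In the lists, Dl and hdc were matched to Delta and heca.

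Pe was compared with Suc by limma 3.58.1 in R 4.3.3, two-sided, with the prior variance trended on fragment length or number and Benjamini-Hochberg adjustment at 0.05, leaving out fragments or genes at 0 in every profile. Both fits were also run on simulated data with independent noise for each fragment or gene. Neighbouring fragments are not independent, so that run cannot show how the fits act on these data. Other values came from Python 3.11.15, numpy 2.4.6 and pandas 2.3.3. Shares over fragments were not tested, because fragments are not replicates, and the limits given for counts of 0 (3 fragments of the total) treat them as independent.

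Genes were named by rule, as the 20 with most regions, the 10 with the largest share, those at the 10 longest and 10 lowest regions, the 12 smallest p in each direction, and the markers. Hosts from the lists, the genes of chromosome 4, those with both kinds of fragment and single intergenic runs were named after their values were seen. The fragments, rules and lists were chosen with earlier results of these data known.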

Additional observations from a re-analysis of the deposited data

Results flagged for a closer look

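In 2 of the 20 genes with the most regions, both Pe profiles had a gene mean above 0 and both Suc profiles one below 0. Over kirre the means were 0.02 and 0.10 in Pe and -0.06 and -0.08 in Suc, a difference of 0.133. Over lncRNA:CR32773 they were 0.04 and 0.03 against -0.03 and 0.00, a difference of 0.0468, with the last value at -0.0013. The opposite directions were not tested, and neither gene passed the adjusted limma comparison of the conditions. Such sign changes were not counted over all genes. Pe lay above Suc without overlap in 36.1% of hosts and 23% of all genes.

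Fragments under 100 bp were outside the rule, and 346 of 120158 (0.288%) were below -0.5 in all 4 profiles. On the Y chromosome 0 of 7388 fragments were, where 93.0% were listed at 0 in every profile.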

How the results depend on the processing

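The number of fragments depended on the threshold, 5903 at -0.3 and 185 at -1, and that of regions likewise (4809 and 175, or 223 when only runs of 2 or more counted). Without 1 replicate there were 2408 to 5593 fragments and 2090 to 4494 regions, the most without Pe replicate 2. MAD scaling gave 2075 fragments and quantile normalization 2163, of which 1736 and 1843 were among the 2045.

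The share inside a gene was 81.5% at -0.3, 88.1% at -1 and 85.8% for any overlap (75.2% of all fragments). The intergenic share was 10.1%, 5.41% and, with protein coding genes alone, 10% (21% of all). With windows of 500 and 5000 bp it was 13.1% and 4.69% (23.4% and 12.9% of all). The share near a gene was then 3.23% and 11.6% (4.8% and 15.4% of all). The share near a gene was 6.49% at -1 and 5.72% for any overlap (6.69% of all). The share of 300 to under 450 bp was 44.1% at -0.3, 61.1% at -1, 45.0% with no minimum length, 54.9% from 200 bp, 50.2% with MAD scaling, 49.5% with quantile normalization and 47.9% to 54.2% without 1 replicate. For no minimum length and for 200 bp, the matching length share of all fragments was not computed. The share on chromosome 4 was 5.95% at -1. The alternatives for length, for chromosome 4, for region counts of named genes and for length-matched fragments were chosen after seeing the data.

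The median Pe minus Suc over the set reversed with MAD scaling (-0.1034) and quantile normalization (-0.0021) and was 0.1071 to 0.1993 without 1 replicate. Over hosts it was 0.0274, 0.032 and 0.0091 to 0.1294. The cause was not tested. Limma called 0 fragments and 0 genes under every alternative run. The replicate block, whose numbers the labels do not pair (correlation of replicate differences 0.178 over fragments and 0.285 over genes), also called 0, with 19563 fragments at an unadjusted p under 0.05 against 16233. Of 200 region counts of the 20 named hosts under 10 settings, 155 stayed within 1.5 times, and without Pe replicate 2 that of l(3)80Fg went from 9 to 46. Sequence was not analysed here. Unknown depth and 2 profiles per condition limit precision.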
